A study of Mus musculus with 4 samples.

Results

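Messenger RNA of splicing factor genes was measured in the telencephalon, the embryonic forebrain region that forms the cerebral hemispheres, of 152F7 transgenic and wild-type mouse embryos at E12.5, an age in embryonic days. The genes were taken by symbol, as every gene whose name begins with Srsf and a digit, Hnrnp, Sf3a or Sf3b and a digit, Snrp, Prpf or U2af. The array annotation gave 66 such genes on 136 spots, of which 64 genes on 121 spots had a value on all 4 arrays, out of 11791 measured genes in all. The spot of Hnrnpul2 had no value on any array and that of Sf3a2 had values on at most 2 arrays. The 64 genes fell into 10 SR proteins, 19 hnRNPs and 35 genes grouped here as snRNP genes, which comprise 8 Sm core proteins, 4 proteins specific to the U1 or U2 particle, 8 SF3A and SF3B subunits, 3 U2AF genes and 12 Prpf genes. Not every gene of the last group encodes a particle subunit, since U2AF and several Prpf proteins associate with the particles only at certain steps.

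Mice of the 152F7 line are transgenic for a segment of human chromosome 21, held on a yeast artificial chromosome, that spans the kinase gene DYRK1A, and both genotypes were on an FVB background. The transgene is human and the probes are those of a whole mouse genome array. One RNA pool per genotype was hybridised on 4 two-colour arrays, 2 with the wild-type pool in Cy5 and 2 with the 152F7 pool in Cy5, and neither the number of embryos per pool nor their sex is stated by the labels. The deposited values are log ratios, read here as log2 with the same direction on all 4 arrays, and the labels do not settle which genotype is the numerator. A positive value therefore means a higher level in the numerator pool, of which genotype it is not known, and errors are SDs over 4 technical arrays that leave out the spread between embryos. With 1 pool per genotype no test between genotypes was possible and no p-value is given. In bulk RNA, fewer cells of a type and less RNA per cell cannot be told apart.

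Splicing removes introns from precursor RNA and is carried out by the spliceosome, which is assembled from small nuclear ribonucleoproteins (snRNPs) and many further proteins. Sm proteins form a ring on the U1, U2, U4 and U5 RNAs, U2AF and the SF3A and SF3B complexes define the 3′ splice site and the branch point, and Prpf proteins belong mainly to the U4/U6.U5 particle and the catalytic core. SR proteins, with domains rich in serine and arginine, mostly promote the use of exons, while hnRNPs coat nascent RNA and often repress exons. SR proteins are controlled by phosphorylation, and DYRK1A is one of the kinases reported to phosphorylate some of them as well as SF3B1. These arrays measured messenger RNA, so phosphorylation and splice choice were not observed.

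The promoters of genes that passed a rule on size and sign of the difference between the pools are shown first. Of the 9 genes past the rule described below, 7 had an entry in the promoter table, while U2af2 and Sf3b5 had none. Each sequence is the 250 bases upstream of the RefSeq transcription start on GRCm38.p6, in the 5′ to 3′ direction of the gene, with motif matches in capitals. The first 4 genes were lower in the numerator pool and the last 3 were higher. The regions are chr7:19149588-19149837 (plus strand) for Snrpd2, chr2:143062819-143063068 (plus strand) for Snrpb2, chr17:31658765-31659014 (minus strand) for U2af1 (the first of its entries), chr4:135855821-135856070 (plus strand) for Srsf10, chr4:33209022-33209271 (plus strand) for Srsf12, chr11:75486527-75486776 (plus strand) for Prpf8 and chr11:4160104-4160353 (plus strand) for Sf3a1.
Snrpd2: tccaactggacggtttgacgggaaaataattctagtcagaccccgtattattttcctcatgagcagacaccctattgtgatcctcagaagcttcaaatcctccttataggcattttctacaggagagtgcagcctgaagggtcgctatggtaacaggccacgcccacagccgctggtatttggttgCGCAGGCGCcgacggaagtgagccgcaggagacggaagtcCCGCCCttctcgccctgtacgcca
Snrpb2: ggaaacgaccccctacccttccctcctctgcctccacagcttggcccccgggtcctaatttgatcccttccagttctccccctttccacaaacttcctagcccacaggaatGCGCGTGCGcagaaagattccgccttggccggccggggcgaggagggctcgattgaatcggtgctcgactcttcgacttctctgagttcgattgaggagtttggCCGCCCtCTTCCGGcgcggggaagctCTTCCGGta
U2af1: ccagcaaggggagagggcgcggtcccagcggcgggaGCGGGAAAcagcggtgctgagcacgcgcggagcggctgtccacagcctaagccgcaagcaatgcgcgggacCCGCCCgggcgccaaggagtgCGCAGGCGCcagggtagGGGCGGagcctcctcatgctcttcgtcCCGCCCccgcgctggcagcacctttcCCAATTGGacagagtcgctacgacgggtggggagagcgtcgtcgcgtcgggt
Srsf10: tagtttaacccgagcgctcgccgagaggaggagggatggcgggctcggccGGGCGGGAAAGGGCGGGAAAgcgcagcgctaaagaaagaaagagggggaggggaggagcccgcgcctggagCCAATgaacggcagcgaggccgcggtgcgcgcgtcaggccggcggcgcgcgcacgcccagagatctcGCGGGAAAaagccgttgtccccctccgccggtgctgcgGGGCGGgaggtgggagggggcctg
Srsf12: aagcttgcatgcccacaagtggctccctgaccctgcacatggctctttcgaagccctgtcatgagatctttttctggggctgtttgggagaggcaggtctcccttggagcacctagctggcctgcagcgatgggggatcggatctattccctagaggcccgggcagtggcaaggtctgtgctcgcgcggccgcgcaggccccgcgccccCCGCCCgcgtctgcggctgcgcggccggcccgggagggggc
Prpf8: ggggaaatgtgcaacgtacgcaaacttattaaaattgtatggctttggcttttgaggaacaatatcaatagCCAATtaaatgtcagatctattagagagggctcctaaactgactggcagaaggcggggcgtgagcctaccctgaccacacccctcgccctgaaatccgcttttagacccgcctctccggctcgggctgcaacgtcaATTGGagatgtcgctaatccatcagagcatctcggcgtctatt
Sf3a1: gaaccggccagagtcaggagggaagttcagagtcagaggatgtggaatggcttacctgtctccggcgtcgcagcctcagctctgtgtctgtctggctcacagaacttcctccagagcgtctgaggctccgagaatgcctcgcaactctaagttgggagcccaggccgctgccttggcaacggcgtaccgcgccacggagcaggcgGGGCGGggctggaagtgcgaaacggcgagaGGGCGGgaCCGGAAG

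The motifs searched, on both strands, were the ETS-type letters CCGGAAG, the NRF1-type letters GCGCNTGCG, the GC box GGGCGG, the CCAAT box (CCAAT itself), the E2F-type letters TTTCCCGC and the TATA box TATAAA. Matches can overlap, as those of the GC box and the E2F-type letters do in Srsf10 and those of the CCAAT box on both strands do in U2af1. Of the 57 splicing factor genes with an entry, 15 (26.3%) held the ETS-type motif, against 13.7% of 9582 measured genes and 7.05% of all 27025 promoters. The NRF1-type motif was found in 9 (15.8%), against 11.5% and 5.4%, the CCAAT box in 28 (49.1%), against 36.9% and 34.5%, and the GC box in 37 (64.9%), against 60.1% and 32.9%. The E2F-type motif was in 4 (7.02%), against 1.85% and 0.929%, and the TATA box in 5 (8.77%), against 6.8% and 13%. By class, the ETS-type motif stood before 10 of 29 snRNP genes, 3 of 10 SR protein genes and 2 of 18 hnRNP genes, and the NRF1-type motif before 7, 2 and 0 of them. Among the sequences shown, an NRF1-type match was present in Snrpd2, Snrpb2 and U2af1, while the promoter of Prpf8 held only CCAAT boxes. A match is a description of the sequence and no binding was measured.

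Differences between the pools were small for every splicing factor gene. Of the 64 genes, 0 reached 1.5-fold, where 0.0763% of all genes were higher, 0.00848% lower and 0.0848% either by that rule. The largest mean belonged to Srsf12 at 0.18, which is 1.14-fold if the values are log2. A looser rule asked for the same sign on all 4 arrays and a mean of at least 0.085 (1.06-fold). At that size, contrasts of replicate 1 with replicate 2 gave on average at most 5% as many genes as the pools. The means of these contrasts are free of genotype and dye. Their counts also rest on a single sign, which a pool or dye difference can break, so the 5% is no rate of false calls. By the looser rule 3 splicing factor genes (4.69%) were higher in the numerator pool, where the share over all genes was 7.62%, and 6 (9.38%) were lower, where it was 4.44%. With wild type in Cy5 replicate 1 left out, 10 genes (15.6%) were lower, where the share over all genes was 5.32%. Together the 9 genes made up 14.1% of the splicing factor genes, against 12.1% of all genes, so the share that passed was near the background. Among genes with a single sign, the smallest called mean was that of Sf3a1 at 0.11 and the largest uncalled one that of Hnrnpk at 0.062. Without the demand on sign, 4 were higher (6.25%, against 10.8% of all genes) and 14 lower (21.9%, against 8.01%).

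The median over the 64 genes was -0.037, with array medians of -0.0040, -0.017, -0.024 and -0.034 in the order wild type in Cy5, replicates 1 and 2, and 152F7 in Cy5, replicates 1 and 2, against 0.0021 for all genes, with -0.012, -0.010, 0.022 and 0.015. The value of a group is the median of its genes' means and can lie outside its array medians. All 4 array medians of the splicing factor genes were below 0, and on the arrays with 152F7 in Cy5 they lay below those of all genes, while with wild type in Cy5 they were close to them. Without replicate 2 of 152F7 in Cy5 the median over the 64 genes was -0.021. A typical splicing factor gene had a mean of 0.055 in size, against 0.039 for all genes, and of 0.015 and 0.018 in the contrasts between replicate numbers, against 0.020 and 0.019. The typical difference between pools, though small, was thus larger than that between replicate arrays. It was smaller than the typical dye contrast, the difference between the orientations divided by 2, which was 0.070 in size, against 0.048 for all genes.

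**Figure D1:**
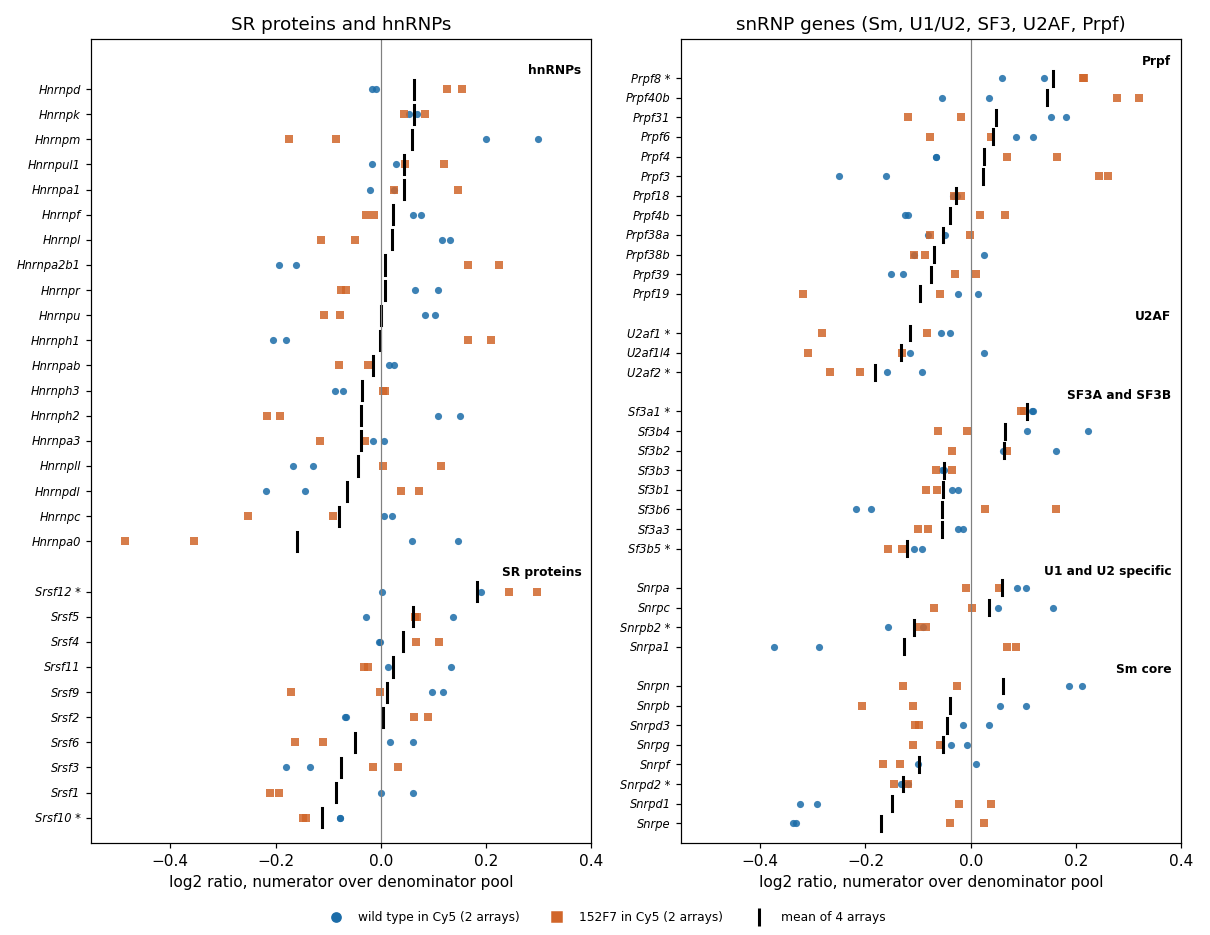
Log2 ratio of each splicing factor gene on each array (circles, wild type in Cy5; squares, 152F7 in Cy5) with the mean of 4 arrays (bar), ordered by mean within each role group; an asterisk marks the 9 genes past the looser rule. Most hnRNP genes show circles and squares on opposite sides of 0, while Snrpd2, Sf3a1 and Srsf10 keep all 4 points on one side.

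Of the 3 classes, the snRNP genes had the lowest median on all 4 arrays. The median of the 35 snRNP genes was -0.052 (array medians -0.024, -0.048, -0.040 and -0.058), with 23 means below 0 and 12 above. By the looser rule 5 of the 35 were lower and 2 higher, where the shares over all genes were 4.44% and 7.62%. The median of the 10 SR proteins was 0.0082 (0.00050, 0.0065, -0.0080 and 0), with 4 means below 0 and 6 above. The median of the 19 hnRNPs was 0 (0.015, 0.025, -0.012 and -0.029), with 9 below 0, 9 above and 1 at 0. The SR protein median exceeded that of the snRNP genes by 0.060, with differences of 0.024, 0.054, 0.032 and 0.058 on the 4 arrays, and the hnRNP median exceeded it by 0.052, with 0.038, 0.073, 0.028 and 0.029. Both differences had the same sign on every array. Without replicate 1 of 152F7 in Cy5 the SR protein median exceeded that of the snRNP genes by 0.031, and the SR protein median was -0.016. SR proteins and hnRNPs differed by 0.0082, with -0.014, -0.019, 0.0040 and 0.029, so their order changed with the dye orientation. In the contrasts between replicate numbers the same class differences were between -0.0066 and 0.00041. If values were Cy5 over Cy3 and 1 orientation were turned, the class medians would be -0.014, -0.034 and -0.023, and the hnRNPs would lie below the snRNP genes.

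**Figure D2:**
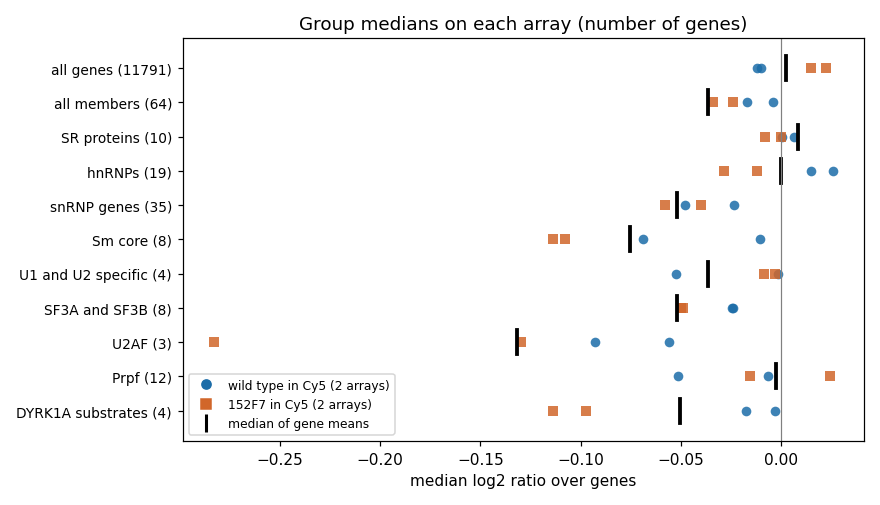
Median log2 ratio of each group on each array (circles, wild type in Cy5; squares, 152F7 in Cy5) and median of the gene means (bar), with the number of genes in brackets. The medians of the snRNP genes, the Sm core, SF3A and SF3B and U2AF lie below 0 on all 4 arrays, and those of the hnRNPs lie on opposite sides of 0 in the 2 orientations.

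Among the Sm core proteins, which form the ring of the particles, 7 of 8 means were below 0 and the median was -0.075 (array medians -0.011, -0.069, -0.11 and -0.11). Only Snrpd2 passed the looser rule, with -0.12 and -0.13 with wild type in Cy5 and -0.12 and -0.15 with 152F7 in Cy5 (mean -0.13 ± 0.013), and its 4 arrays lay close together. Snrpe and Snrpd1 had lower means, -0.17 ± 0.19 and -0.15 ± 0.19, but these came from 1 orientation. Snrpe measured -0.33 and -0.34 with wild type in Cy5 and -0.040 and 0.025 with 152F7 in Cy5, and Snrpd1 -0.29 and -0.33 with wild type in Cy5 and 0.039 and -0.023 with 152F7 in Cy5, so both were well below 0 in the first orientation and near 0 in the second. Snrpf (-0.098 ± 0.077), Snrpg (-0.053 ± 0.043) and Snrpd3 (-0.046 ± 0.068) had their lowest arrays with 152F7 in Cy5. The exception was Snrpn, the paternally expressed, neuron-enriched counterpart of Snrpb, at 0.061 ± 0.17 with spot means of 0.036 and 0.085. Snrpb itself had -0.039 ± 0.14. Both genes were above 0 with wild type in Cy5 and below 0 with 152F7 in Cy5, Snrpn at 0.19 and 0.21 with wild type in Cy5 and -0.026 and -0.13 with 152F7 in Cy5 and Snrpb at 0.055 and 0.10 with wild type in Cy5 and -0.11 and -0.21 with 152F7 in Cy5, and they share sequence, so a probe may not tell them apart. Snrpn was the higher of both on every array.

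Of the U2-specific proteins Snrpb2 was lower, at -0.091 and -0.16 with wild type in Cy5 and -0.100 and -0.085 with 152F7 in Cy5 (mean -0.11 ± 0.033), although neither of its spots, with means of -0.11 and -0.10, passed the rule alone. Snrpa1, its partner on the U2 RNA, had a mean of -0.13 ± 0.24 and did not pass. Snrpa1 had the widest split by dye of the snRNP genes after Prpf3, with -0.29 and -0.37 with wild type in Cy5 and 0.068 and 0.086 with 152F7 in Cy5. The measured genes of U1, which recognises the 5′ splice site, went both ways. Snrpa was at 0.059 ± 0.050 with 4 spots between 0.032 and 0.084 and Snrpc at 0.035 ± 0.095, while Snrnp70, a U1 protein whose symbol lies outside the naming rule, was at -0.055 ± 0.076. None of these passed the rule.

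The U2AF genes, whose products bind the pyrimidine tract and the AG of the 3′ splice site, had the lowest group median, -0.13 over 3 genes (array medians -0.056, -0.093, -0.13 and -0.28). With 1 orientation turned it would be -0.068, with 0 of 3 genes called, against 17.6% of all genes. U2af2, the large subunit, had the lowest mean of all 64 genes, -0.18 ± 0.074, with -0.16 and -0.093 with wild type in Cy5 and -0.21 and -0.27 with 152F7 in Cy5. Its spots had means of -0.20 and -0.16, and both were below 0 on every array. The mean of U2af1, the small subunit, was -0.12 ± 0.11, with spot means of -0.14 and -0.086. Only the first spot passed alone. The second had 0.049 and 0.025 with wild type in Cy5 and -0.15 and -0.27 with 152F7 in Cy5. Averaged over spots, U2af1 had -0.056 and -0.039 with wild type in Cy5 and -0.084 and -0.28 with 152F7 in Cy5. The mean thus leaned on replicate 2 with 152F7 in Cy5. Without that array U2af1 was at -0.066 and no longer passed, and the median of the 3 genes was -0.087. U2af1l4, a paralog of the small subunit, had -0.13 ± 0.14 with 1 array above 0.

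Subunits of SF3A and SF3B, the complexes that hold U2 at the branch point, went both ways, with a median of -0.052. Sf3b5, a small subunit of SF3B, was lower, at -0.093 and -0.11 with wild type in Cy5 and -0.13 and -0.16 with 152F7 in Cy5 (mean -0.12 ± 0.028). Sf3a1, the largest subunit of SF3A, was higher, at 0.12 and 0.12 with wild type in Cy5 and 0.10 and 0.096 with 152F7 in Cy5 (mean 0.11 ± 0.011). Each value came from 1 spot and both varied little between arrays. Sf3b1, the branch point subunit that DYRK1A is reported to phosphorylate, was below 0 on all arrays when its 2 spots were averaged. It had -0.024 and -0.035 with wild type in Cy5 and -0.086 and -0.065 with 152F7 in Cy5 (mean -0.052 ± 0.028). One of its spots had 0.085 and 0.038 with wild type in Cy5 and -0.14 and -0.084 with 152F7 in Cy5. Sf3b1 was short of the threshold, as were Sf3b3 (-0.051 ± 0.013) and Sf3a3 (-0.055 ± 0.042). Sf3b2 (0.064 ± 0.081) and Sf3b4 (0.064 ± 0.13) had means above 0 and Sf3b6, which contacts the branch adenosine, one of -0.054 ± 0.18, each with arrays of both signs.

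The 12 Prpf genes had a median of -0.0025, near that of all genes. Prpf8, the largest protein of the U5 particle and the scaffold of the catalytic core, was higher, with 0.060 and 0.14 with wild type in Cy5 and 0.21 and 0.21 with 152F7 in Cy5 (mean 0.16 ± 0.073) and spot means of 0.14 and 0.17. All of its spot values were above 0. Prpf40b, which is related to a yeast U1 protein, had 0.14 ± 0.18 and did not pass, since it measured 0.034 and -0.055 with wild type in Cy5 and 0.28 and 0.32 with 152F7 in Cy5. At the other end stood Prpf19, the ubiquitin ligase of the complex that activates the spliceosome, at -0.097 ± 0.15, and Prpf39, a U1-associated protein, at -0.075 ± 0.077. The Prpf19 mean leaned on replicate 2 with 152F7 in Cy5, with 0.014 and -0.024 with wild type in Cy5 and -0.058 and -0.32 with 152F7 in Cy5. Prpf3 of the U4/U6 particle had the largest difference between orientations among the snRNP genes, -0.16 and -0.25 with wild type in Cy5 and 0.24 and 0.26 with 152F7 in Cy5, and a mean of 0.023.

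SR protein means ranged from -0.11 to 0.18, and the genes at these ends are closely related. Srsf10 and Srsf12 both belong to the SRp38-like branch, which includes repressors of splicing. Srsf10 was lower, with -0.077 and -0.078 with wild type in Cy5 and -0.14 and -0.15 with 152F7 in Cy5 (mean -0.11 ± 0.039), and its 4 spots had means of -0.16, -0.13, -0.095 and -0.061, all below 0, and 2 of them passed alone. Srsf12 was higher, with 0.0020 and 0.19 with wild type in Cy5 and 0.30 and 0.24 with 152F7 in Cy5 (mean 0.18 ± 0.13), from 1 spot. One of its arrays was at 0.002, so it barely met the demand on sign. Srsf5 and Srsf4 had the next highest means, 0.061 ± 0.068 and 0.043 ± 0.055, and Srsf1 and Srsf3 the next lowest, -0.086 ± 0.14 and -0.075 ± 0.100, and none of these passed. Srsf5 was at 0.10 and 0.019 without replicate 1 or 2 of wild type in Cy5, so its place in the order is not firm.

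None of the measured SR proteins reported as DYRK1A substrates passed the looser rule. Srsf1, which promotes exon inclusion, measured 0.061 and 0 with wild type in Cy5 and -0.19 and -0.21 with 152F7 in Cy5, Srsf2 -0.066 and -0.067 with wild type in Cy5 and 0.090 and 0.063 with 152F7 in Cy5 and Srsf6, a regulator of tau exon choice, 0.018 and 0.061 with wild type in Cy5 and -0.11 and -0.16 with 152F7 in Cy5. Each split by orientation or was near 0 in one of them, and the 4 spots of Srsf2 lay between -0.017 and 0.028 around a mean of 0.0051 ± 0.084. One of the 2 spots of Srsf1 passed the rule alone, with a mean of -0.10, and the other did not. Srsf7, another reported substrate, was not analysed here. With Sf3b1, the 4 substrates had a median of -0.050 (array medians -0.0030, -0.018, -0.098 and -0.11), against -0.032 for the other 60 genes. By the looser rule 0 of 4 passed, against 12.1% of all genes. With 1 orientation turned the median of the substrates would be -0.055, with 1 of 4 lower, against 5.95% of all genes. Among kinases that act on SR proteins, Dyrk1a itself had 0.028 ± 0.13, Srpk1 -0.031 ± 0.14, Srpk2 -0.058 ± 0.041, Clk2 -0.013 ± 0.081, Clk3 -0.033 ± 0.018 and Clk4 -0.051 ± 0.085. None of these passed. Averaged over its 4 spots, Srpk2 was below 0 on every array, and its mean was the lowest of the 14 measured SR kinases and phosphatases. Dyrk1a was below 0 with wild type in Cy5 and above 0 with 152F7 in Cy5, and Srpk1 the reverse. In the turned reading Dyrk1a would be higher, at 0.10, and Srpk1 lower, at -0.12.

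None of the 19 hnRNP genes passed the looser rule, where the share over all genes was 12.1%. Single spots of Hnrnpa3 and Hnrnpc (lower) and of Hnrnpk (higher) passed alone. Most hnRNP genes differed between the dye orientations. In 15 of 19 genes (78.9%) both arrays of one orientation lay above 0 and both arrays of the other below it. This held for 29 of the 64 splicing factor genes (45.3%), for 5 of 10 SR proteins (50%) and 9 of 35 snRNP genes (25.7%), and for 30.8% of all genes. The dye contrast, taken as 152F7 in Cy5 minus wild type in Cy5, ran in both directions. Hnrnpa0 had the largest, -0.26, with 0.060 and 0.15 with wild type in Cy5 and -0.35 and -0.49 with 152F7 in Cy5. Hnrnph1 and its X-linked paralog Hnrnph2, which bind runs of guanines, went opposite ways, with dye contrasts of 0.19 and -0.17. Hnrnpa2b1, a carrier of RNA to dendrites, had 0.19 and Hnrnpm -0.19. Their means over both orientations were -0.0022, -0.037, 0.0088 and 0.060, all small beside these contrasts.

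The highest hnRNP means were 0.063 ± 0.090 for Hnrnpd, which binds AU-rich messages, and 0.062 ± 0.018 for Hnrnpk, a binder of C-rich RNA, and the lowest were -0.16 ± 0.31 for Hnrnpa0 and -0.080 ± 0.13 for Hnrnpc, which binds runs of uridines. Hnrnpk was the one hnRNP gene with a single sign on all arrays, with 0.053 and 0.069 with wild type in Cy5 and 0.043 and 0.084 with 152F7 in Cy5. These are averages over 3 spots, and the lowest spot had arrays of both signs. That spot had -0.018 and 0.16 with wild type in Cy5 and -0.010 and -0.11 with 152F7 in Cy5. Hnrnpa1, the best-known exon repressor of the class, had 0.044 ± 0.072, with spot means of -0.029, 0.0095, 0.067 and 0.13. Its spots differed in direction. The highest spot had 0.007 and -0.072 with wild type in Cy5 and 0.30 and 0.28 with 152F7 in Cy5. Many hnRNP genes have near-identical pseudogene copies, and whether the probes also match such copies was not tested. Without replicate 1 of 152F7 in Cy5 Hnrnpa1 was at 0.013 and Hnrnpc at -0.12, and without replicate 2 they were at 0.075 and -0.039.

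**Figure D3:**
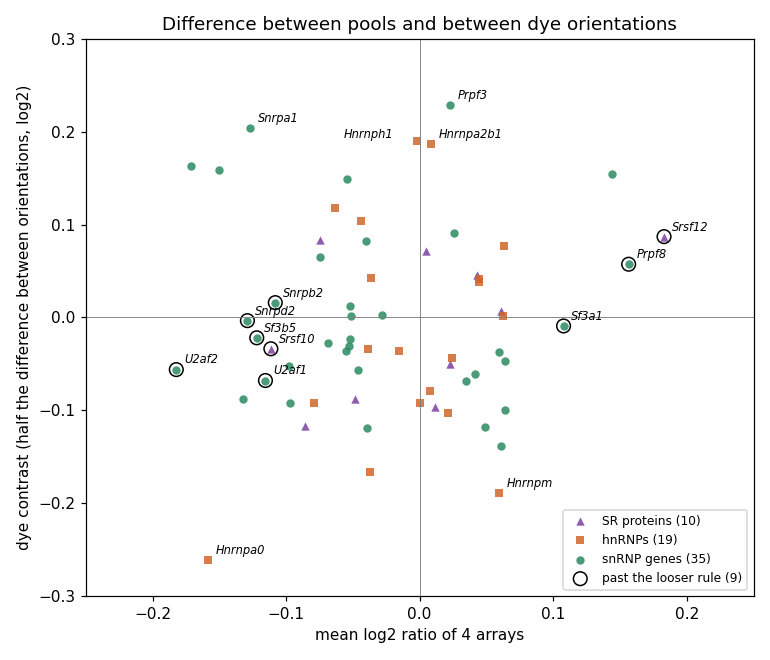
Mean log2 ratio of 4 arrays (x axis) against the dye contrast (y axis, log2) for 64 genes by class, with rings around the 9 genes past the looser rule. The hnRNPs spread along the y axis, from -0.26 for Hnrnpa0 to 0.19 for Hnrnph1, while the ringed genes have dye contrasts between -0.068 and 0.087.

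The reading of direction rests on earlier work with the same values. Measured genes of the sex chromosomes kept a single sign on all 4 arrays. Xist had -3.33 and -3.27 with wild type in Cy5 and -3.53 and -3.38 with 152F7 in Cy5. In the same order Eif2s3y had 1.77, 1.87, 2.39 and 2.37, and Kdm5d 0.770, 0.705, 0.845 and 0.895. With 1 orientation turned they would be at -0.077, 0.28 and 0.066, so their large values appear only in the unturned reading. The dye contrast is also what the genotype difference (152F7 over wild type) would be if each value were Cy5 over Cy3. In that turned reading 8 of the 64 splicing factor genes would be higher, where the share over all genes was 11.6%, and 12 (18.8%) lower, where it was 5.95%. Either direction took 17.6% of all genes. Of these, 4 and 6 are hnRNPs, 0 and 2 SR proteins and 4 and 4 snRNP genes. A gene with a single sign on all 4 arrays cannot pass in the turned reading, so the called genes of both readings never overlap. Genes with several spots offer a comparison of both readings. In 26 of 35 such splicing factor genes (74.3%) all spots had the same sign in the unturned mean, and in 16 (45.7%) they did so in the dye contrast, where the contrasts between replicate numbers gave 31.4% and 45.7%. Over all 4353 such genes the shares were 56.4% for the unturned mean, 46.9% for the dye contrast and 44.1% and 43.7% for the contrasts between replicate numbers. The share in the unturned mean was highest for the snRNP genes, 14 of 16, against 5 of 6 SR proteins and 7 of 13 hnRNPs.

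Splicing genes outside the naming rule were taken from 8 lists. LSm proteins resemble Sm proteins, and some of them, though not all 13 listed here, bind the U6 RNA or decaying messages. They had the lowest median, -0.077, with 4 of 13 lower (30.8%, against 4.44% of all genes) and 0 higher (against 7.62%). With 1 orientation turned their median would be 0.011 and not the lowest. The lowest of these were Lsm8, a part of the U6 ring, at -0.18 ± 0.042 and Lsm5, which sits in both LSm rings, at -0.17 ± 0.099. Of 16 SR-related genes (median -0.066) 1 was higher and 1 lower. Srrm2, a scaffold of nuclear speckles, was at 0.30 and 0.17 with wild type in Cy5 and 0.35 and 0.36 with 152F7 in Cy5 (mean 0.30 ± 0.086), farther from 0 than any of the 64 genes, and Tra2b, a splicing activator, at -0.12 ± 0.096. Of 23 neural splicing regulators 2 were higher and 0 lower (median 0.0016), Srrm4, which drives neuronal microexons, at 0.17 ± 0.056 and Celf5 at 0.15 ± 0.043. Of 14 genes of snRNP assembly 1 was lower, Gemin2 of the SMN complex, at -0.13 ± 0.023, and Smn1 had 0.037 ± 0.070. Of 22 other snRNP genes 1 was lower, Snrnp25 of the minor spliceosome at -0.16 ± 0.056. Their median was -0.00525, with 10 means above 0 and 12 below. It was thus nearer to 0 than the -0.052 of the 35 snRNP genes inside the naming rule. Of 24 helicases and Prp19-complex genes (median -0.0019) 1 was higher and 2 lower. Of 14 SR kinases and phosphatases (median -0.026) 1 was higher, Hipk2 at 0.12 ± 0.061, and of 4 exon junction genes (median -0.023) 0 passed. Over the 130 measured genes of these lists 5 were higher (3.85%, against 7.62% of all genes) and 9 lower (6.92%, against 4.44%), with a median of -0.020.

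**Figure D4:**
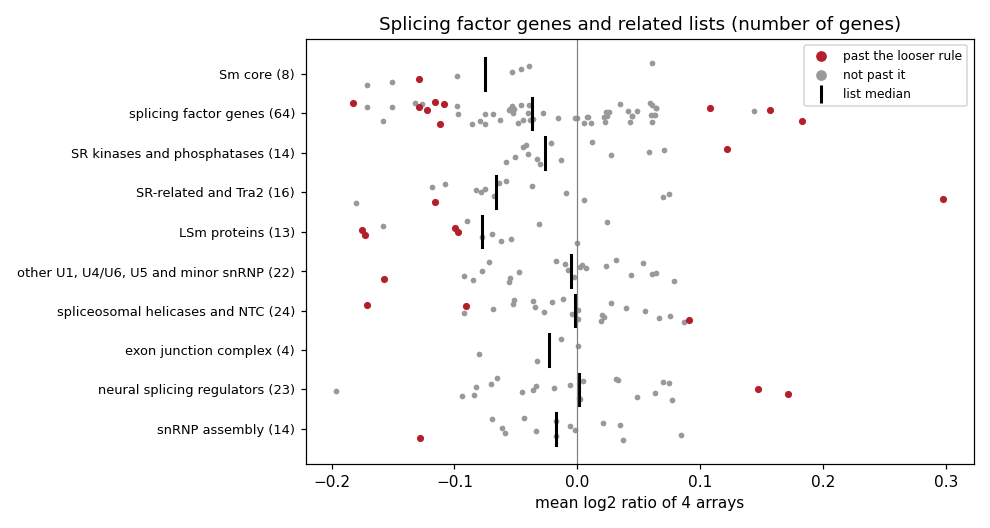
Mean log2 ratio of 4 arrays for each gene (points), with list medians (bars) and genes past the looser rule in red; the number of genes stands in brackets and the Sm core is also contained in the splicing factor genes. The medians of the LSm proteins and the Sm core, -0.077 and -0.075, lie farthest below 0 in the unturned reading. With 1 orientation turned they would be 0.011 and -0.042.

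Longer splicing factor genes tended to have higher means, though not in every role group. Across the 64 genes the Spearman correlation between mean ratio and the length of the gene on GRCm38.p6 was 0.35, against 0.17 across 11777 of all genes, and it was 0.47 across the 35 snRNP genes, 0.43 across the hnRNPs and 0.18 across the SR proteins. Within the snRNP genes the correlation was 0.67 for the 8 Sm core genes, 0.36 for the 8 SF3A and SF3B genes and 0.15 for the 12 Prpf genes. It was -0.40 for the 4 genes specific to U1 or U2 and -0.50 for the 3 U2AF genes. The Sm core value includes Snrpn, the longest of the 64 genes at 467683 bases and the only Sm core gene with a mean above 0. Genes share the same arrays and pools and the role groups are small, so these correlations are a description. The Sm core genes, with a median length of 7555 bases, are shorter than the Prpf genes, with 22307 bases, and all genes have 23462. The part of gene length in the difference between classes was not tested.

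Markers of other tissues and of sex also differed between the pools. The numerator pool had more of Eif2s3y (2.10) and less of Xist (-3.38), and lens, red cell and mesenchyme markers had medians of 0.50 (8 of 9 higher), 0.19 (6 of 7 higher) and 0.21 (5 of 9 higher, 1 lower). Neuron markers had a median of 0.069 (3 of 11 higher), radial glia markers 0.0088 (1 of 9 higher) and markers of dividing cells -0.072 (3 of 10 lower). The shares over all genes were 7.62% higher and 4.44% lower. The part of these markers in the values of the splicing factor genes was not tested. Ratios give no level, so the tissue could not be checked from its markers beyond the fact that 9 telencephalon genes had values on all arrays. Of these 9 genes 2 were higher and 1 lower, with a median of 0.082. Over all 20923 complete spots, arrays of opposite orientation correlated at -0.60 to -0.66 (Pearson), but over the 17767 of them with 1 gene symbol at 0.037 to 0.12. Of the spots without a symbol, 114 exceeded 1 in size on all arrays, and all 114 changed sign with the orientation, as none of the 7 such named spots did. Across the 64 splicing factor genes the correlations were 0.88 and 0.87 within an orientation and -0.17 to -0.28 between orientations.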

How the data were processed

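RNA of 1 pool per genotype was hybridised on 4 two-colour Agilent whole mouse genome arrays, from Trizol extracts labelled with Cy3 and Cy5 as the labels' protocols state. The deposited values are log ratios of the 2 channels, read as log2. How the authors corrected, normalized and filtered the signals, and in which direction and log base they took the ratio, is not given in the sources used here. Every fold assumes log2. The array medians lie between -0.007 and 0.007, and 23796 to 28942 of 44290 spots have a value. Intensities were not used, so the number of arrays limits the precision.

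Spots were named through the platform annotation (32042 with 1 symbol, 47 with several, not used, and 12201 with none). Spots complete on all 4 arrays (20923, among them 17767 with 1 symbol) were averaged within a gene and then over arrays, so both dye orientations weigh equally. The unturned direction follows an earlier analysis of these data, and the members, gene lists and rules were chosen with earlier results of these data known. Named genes are, in each role group, those past the looser rule, the 2 highest and the 2 lowest, a fixed set (reported DYRK1A substrates, Snrpn, Snrpb, Hnrnpa1, U2af1 and U2af2) and genes whose spot means differ by over 0.2 (0 did), which gave 32 genes. Other genes are named to show dye splits or to complete a role group, and these were chosen after their values were seen. No test was run, since the arrays are technical replicates of 1 pool per genotype. The rule was run on simulated arrays only as a check of its code. The demand on genes found was set there at a change larger than that of any splicing factor gene. No rate of missed or false calls is taken from it. Promoter sequences and gene lengths are from RefSeq (GRCm38.p6), with 57 of 64 genes matched to a promoter entry. Alternatives were the turned sign, each array left out, each orientation alone, the probe nearest to 0, a looser filter on missing values, a filter on noisy probes, another centring and natural logs. Python 3.11.15, numpy 2.4.6 and pandas 2.3.3 were used.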

Additional observations from a re-analysis of the deposited data

Results flagged for a closer look

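The median of the hnRNPs was above 0 on both arrays with wild type in Cy5 and below 0 on both with 152F7 in Cy5, and the difference between the orientations was -0.040. It was the one of 10 group medians with such a split, and the difference was not tested. Among 45 results looked at for an array far from the other 3, the median of the proteins specific to U1 or U2 stood out, with -0.053 on replicate 2 with wild type in Cy5. Chance would mark about 5% of such groups if the 4 arrays were independent draws from a single normal distribution. The arrays are 2 dye orientations with 2 technical arrays each, and the 45 results overlap, so that rate need not hold here.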

How the results depend on the processing

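No paired analysis was possible because the results come from no test, and the shared replicate numbers only name arrays. With 1 array left out in turn, its partner keeping the weight of the orientation, 3 to 4 splicing factor genes were higher (4.69% to 6.25%). Between 6 and 10 were lower (9.38% to 15.6%), the highest count being without replicate 1 of wild type in Cy5. Over all genes the main shares of 7.62% higher and 4.44% lower also rose, to 8.41% to 9.16% and 5.32% to 6.27%, with 1 array left out. The median over all 64 genes was then -0.037 to -0.021, that of the SR proteins -0.016 to 0.018, and the SR protein median exceeded that of the snRNP genes by 0.031 to 0.066. With the sign of 1 orientation turned, 8 genes were higher and 12 lower, the medians were -0.014 for SR proteins, -0.034 for hnRNPs and -0.023 for snRNP genes, the SR protein median exceeded that of the snRNP genes by 0.0090, the hnRNP median minus the snRNP median was -0.011, and of the called genes Sf3a1 and Snrpb2 changed sign, at -0.0092 and 0.016. Of the uncalled named genes, Snrpa1 (0.20), Snrpe (0.16), Snrpd1 (0.16), Snrpn (-0.14), Sf3b4 (-0.100), Snrpc (-0.069), Prpf39 (0.065) and Snrpa (-0.037) changed sign too. A single orientation keeps the dye effect. Wild type in Cy5 alone gave 17 higher and 16 lower (26.6% and 25%, against 13.9% and 19.3% of all genes), with medians of -0.0077 for all 64 genes and 0.035 for SR proteins. From 152F7 in Cy5 alone came 12 higher and 21 lower genes (18.8% and 32.8%, against 23.5% and 13.6%), so the excess over all genes was larger among higher genes in the first orientation and among lower genes in the second. The second gave an SR protein median of -0.0097, and differences from the snRNP genes of 0.030 for SR proteins and 0.020 for hnRNPs. The probe nearest to 0 gave -0.013 for all 64 genes, -0.00088 for SR proteins and 0.038 for SR proteins minus snRNP genes. Without the noisiest 25% of probes these were -0.012, -0.022 and 0.030, and SR proteins minus hnRNPs was -0.026. Without the demand on sign, an alternative chosen after seeing the data, 14 genes were lower (21.9%, against 8.01% of all genes). The sign of the SR protein median thus depended on the setting, while the snRNP median was below 0 in every setting run. Of the 9 called genes, U2af1 was lost in 4 settings other than the turned one, Srsf10 in 2 and Snrpb2 in 1, with the same sign kept, and Srsf12 had no probe left without the noisiest 25%. Natural logs left the count past 1.5-fold at 0. The causes of these changes were not tested.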
